A study of Homo sapiens with 3 samples.

Results

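Tubulins are the proteins from which microtubules are built, and 10 of their genes were described here in the 3 cultures of an immortalized human corneal epithelial cell line (iHCE). The genes were the alpha-tubulins TUBA1A, TUBA1B, TUBA1C and TUBA4A, the beta-tubulins TUBB, TUBB2A, TUBB3 and TUBB6, the gamma-tubulin TUBG1 and the delta-tubulin TUBD1. Every probe set annotated to 1 gene only and carrying one of these symbols was kept. This gave 19 of the 19071 probe sets that name 1 gene, and 10 of the 11963 genes that such probe sets name.

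RNA was taken from 3 independent replicate cultures of iHCE cells, an established line immortalized with the SV40 large T antigen. The RNA of each culture was hybridized to its own HG-U133A array. All cultures were of passages 22 to 23, grew on collagen-coated filters with their surface lifted to the air, and shared a medium with serum, insulin, cholera toxin, EGF and DMSO. Their transepithelial resistance was 489, 439 and 468 Ω x cm2 in cultures 1, 2 and 3, above the minimum of 300 Ω x cm2. The 3 arrays form 1 group with no control, and arrays of corneal tissue were not analysed here, so each value was set against a background level and against the other cultures.

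Alpha- and beta-tubulin form the heterodimer that adds to and leaves microtubule ends, and the isotypes of each class differ mostly in their acidic carboxyl-terminal tails. Gamma-tubulin sits in ring complexes at the centrosome from which new microtubules grow, and delta-tubulin is needed for the triplet microtubules of centrioles. In epithelia microtubules run along the apical to basal axis, form the mitotic spindle in dividing cells and the axoneme in ciliated ones.

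Of the 10 genes, the 4 alpha-tubulins, the 4 beta-tubulins and TUBG1 were above background in every iHCE culture, and TUBD1 was above it in none. Above background means a log2 value over the level that 95% of 62 measured genes of other tissues stayed under on the same array, which was 7.12, 7.06 and 7.09 in cultures 1, 2 and 3. Of the member probe sets 17 of 19 passed this on each of the 3 arrays, where 34.9% of all probe sets did. Of the member genes 9 of 10 passed at their probe set of highest mean, where 44.9% of all genes did. In limma's one-sided test of the mean over the threshold, adjusted after Benjamini and Hochberg over all probe sets that are not controls, the same 17 probe sets passed at an adjusted p under 0.05, against 33.9% of all probe sets. The lowest distance between one of these 17 and the threshold on any array was 1.48 log2 units.

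The values of different probe sets of an array depend on how well each binds and are not set against each other here. In 14 of the 19 member probe sets (73.7%) the name ends in _x_at or _s_at, the manufacturer's mark for probes that can bind more than 1 transcript, against 46.8% of all probe sets. Within a class the coding sequences of tubulin genes are much alike, so how much of a marked probe set's value belongs to the gene it names cannot be told from these arrays. The 5 unmarked probe sets belong to TUBA4A, TUBB, TUBB2A, TUBB6 and TUBG1, and all 5 were above background.

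**Figure D1:**
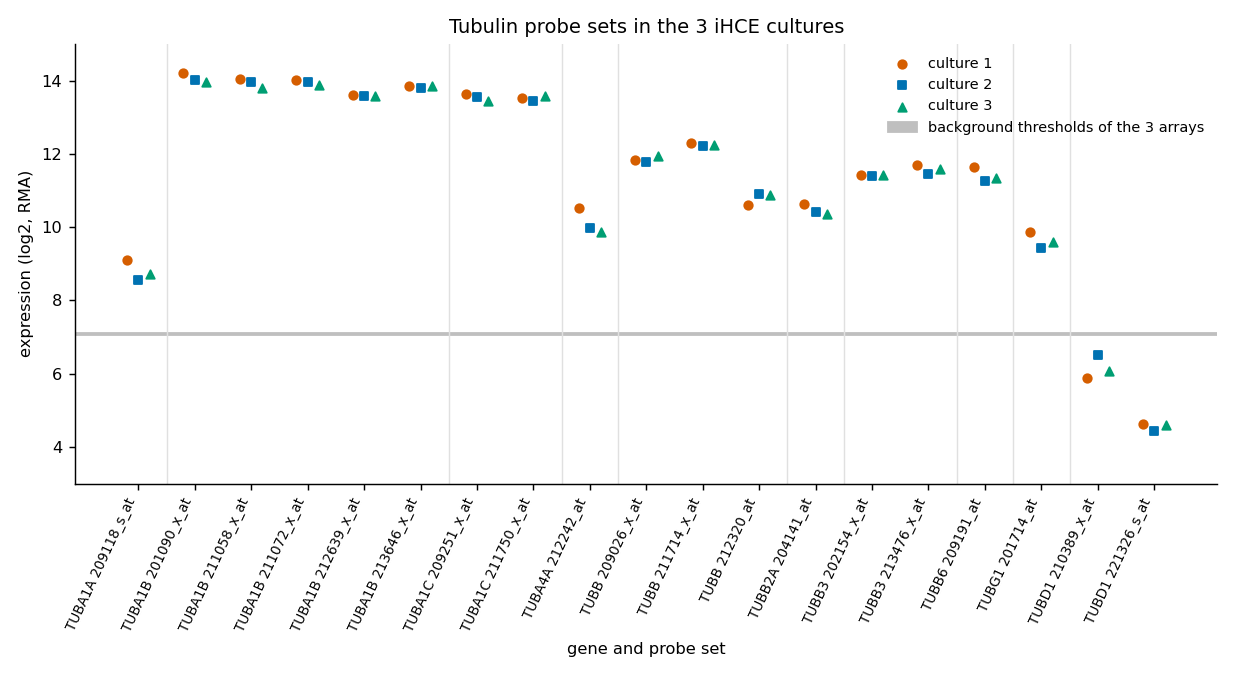
Log2 expression (vertical axis) of the 19 tubulin probe sets (horizontal axis) in the 3 iHCE cultures, 1 point per culture, with the background thresholds of the arrays as a grey band. The 17 probe sets of alpha-, beta- and gamma-tubulins lie above the band in every culture and the 2 of TUBD1 lie below it.

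Among the alpha-tubulins, the 9 probe sets of 4 genes were above the threshold by 1.70 to 6.97 log2 units on average. TUBA1B, an alpha-tubulin made in most tissues, is encoded on chromosome 12 (chr12:49127782-49131395, GRCh38.p14) and has 5 probe sets, all marked _x_at. Its probe set 201090_x_at had log2 values of 14.20, 14.02 and 13.95 in cultures 1, 2 and 3, a mean of 14.06 ± 0.13 (SD, n = 3). The mean was 6.97 log2 units over the threshold (limma, adjusted p = 5.5e-09). The other 4 had means of 13.94 ± 0.12 (211058_x_at), 13.95 ± 0.06 (211072_x_at), 13.59 ± 0.0059 (212639_x_at) and 13.84 ± 0.03 (213646_x_at).

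TUBA1C, another alpha-tubulin, lies on the same chromosome (chr12:49227926-49274600), with TUBA1A between it and TUBA1B. Its probe set 209251_x_at had values of 13.64, 13.55 and 13.44, and 211750_x_at of 13.51, 13.43 and 13.57 in cultures 1, 2 and 3. Their means of 13.54 ± 0.10 and 13.51 ± 0.07 (SD, n = 3) exceeded the threshold by 6.45 and 6.42 log2 units (limma, adjusted p = 5.5e-09 for both).

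TUBA1A (chr12:49184795-49189080), the alpha-tubulin best known from developing neurons, was read by 209118_s_at alone. Its values were 9.10, 8.55 and 8.73 in cultures 1, 2 and 3, with a mean of 8.79 ± 0.28 (SD, n = 3) that lay 1.70 log2 units over the threshold (limma, adjusted p = 4e-06). Culture 1 was the highest, and the 3 values spanned 0.55 log2 units.

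TUBA4A (chr2:219249710-219254740) encodes an alpha-tubulin without the carboxyl-terminal tyrosine that TUBA1A, TUBA1B and TUBA1C encode. Its unmarked probe set 212242_at had values of 10.52, 9.98 and 9.85 in cultures 1, 2 and 3. The mean of 10.12 ± 0.35 (SD, n = 3) was 3.03 log2 units over the threshold (limma, adjusted p = 3.8e-07). This was the widest spread of the 19, with culture 1 above both others.

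The beta-tubulins had 7 probe sets of 4 genes, all above background by 3.39 to 5.16 log2 units on average. TUBB (chr6:30720352-30725422) encodes the beta-tubulin made in most cell types. The marked probe sets read 11.84, 11.76 and 11.95 (209026_x_at) and 12.29, 12.22 and 12.24 (211714_x_at) in cultures 1, 2 and 3, with SDs of 0.09 and 0.04. The unmarked 212320_at had values of 10.61, 10.91 and 10.88, a mean of 10.80 ± 0.16 (SD, n = 3), 3.71 log2 units over the threshold (limma, adjusted p = 3.6e-08). On this probe set culture 1 was the lowest, while on 211714_x_at it was the highest, so the probe sets of TUBB disagree in the order of the cultures.

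TUBB2A (chr6:3153666-3157544), a beta-tubulin abundant in brain, had values of 10.63, 10.43 and 10.37 on the unmarked 204141_at, with a mean of 10.48 ± 0.14 (SD, n = 3), 3.39 log2 units over the threshold (limma, adjusted p = 3.1e-08). TUBB6 (chr18:12307669-12329826), a beta-tubulin of many non-neuronal tissues, had values of 11.65, 11.25 and 11.35 on the unmarked 209191_at, with a mean of 11.42 ± 0.21 (SD, n = 3), 4.32 log2 units over the threshold (limma, adjusted p = 1.8e-08). Both were highest in culture 1.

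TUBB3 (chr16:89921925-89936097), which is widely used as a marker of neurons and is also found in tumour cells, was read by 2 marked probe sets. The values were 11.42, 11.39 and 11.41 on 202154_x_at and 11.69, 11.45 and 11.60 on 213476_x_at in cultures 1, 2 and 3. The means of 11.41 ± 0.02 and 11.58 ± 0.12 (SD, n = 3) lay 4.32 and 4.49 log2 units over the threshold (limma, adjusted p = 8.7e-09 and 9.4e-09). Beside them, 1 of 13 measured neuronal markers was above background on all 3 arrays, against 44.9% of all genes. This was the neurofilament gene INA, at 9.26, 8.92 and 9.30 in cultures 1, 2 and 3. ELAVL3, a neuronal RNA-binding protein gene, passed on 2 arrays with a mean of 7.19, and the other 11 passed on none, among them DCX (mean 4.74), STMN2 (4.63), NEFL (4.55) and MAP2 (6.68). The summed linear level of the 13 was 1384, 1254 and 1424 in cultures 1, 2 and 3. What other beta-tubulin transcripts add to the TUBB3 probe sets was not tested.

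TUBG1 (chr17:42609683-42615238), the main gamma-tubulin gene, had values of 9.86, 9.44 and 9.58 on the unmarked 201714_at. The mean of 9.63 ± 0.22 (SD, n = 3) was 2.54 log2 units over the threshold (limma, adjusted p = 2.2e-07), and culture 1 was again the highest.

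TUBD1 (chr17:59859479-59892943), the delta-tubulin gene, was above background on no array with either probe set. The values were 5.89, 6.50 and 6.08 on 210389_x_at and 4.63, 4.42 and 4.60 on 221326_s_at in cultures 1, 2 and 3. The means lay -0.93 and -2.54 log2 units from the threshold (limma, adjusted p = 1 for both), which says that no level above background was detectable, not that the transcript was absent. None of 7 measured markers of ciliated cells, whose cilia grow from centrioles, was above background on any array (FOXJ1 had a mean of 6.74). Of all genes 44.9% were above background on all 3 arrays.

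Most of the members that were above background were somewhat higher in culture 1 than in cultures 2 and 3. At some probe sets the lead was small, as at 212639_x_at of TUBA1B, with 13.5965 in culture 1 and 13.5887 in culture 2. The 17 probe sets are not separate observations, since 5 of them belong to TUBA1B. Culture 1 had the highest value at 13 of the 17 probe sets, where this held for 39.0% of all probe sets above background, and the lowest at 1 of them, where this held for 40.8%. At the probe set of highest mean, culture 1 was the highest for 9 of 9 member genes above background, against 40.1% of all genes above background. With the mean over a gene's probe sets it was the highest for 8 of the 9. These counts depend on the scaling between arrays. With a further quantile normalization of the 3 columns culture 1 was the highest at 6 of the 17 probe sets and for 6 of the 9 genes, and 7 probe sets turned from higher to lower in culture 1 than in the mean of cultures 2 and 3. All 7 of these are marked and belong to TUBA1B, TUBA1C, TUBB and TUBB3. With each array centred on its median over the probe sets above background, culture 1 was the highest at 15 of the 17. Centring raised culture 1 against the others at every probe set. Over those above background the median difference of culture 1 from the mean of cultures 2 and 3 went from -0.0062 to 0.0575. The shares of 39.0%, 40.8% and 40.1% are those of the deposited values alone. The counts after quantile normalization, after centring and with the mean over probe sets have no such share beside them and cannot be read against these.

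The difference of culture 1 from the mean of cultures 2 and 3 reached 0.3 log2 units at 4 of the 17 probe sets, against 13.1% of all probe sets above background. These were TUBA4A (0.60, a 1.52-fold difference), TUBA1A (0.46, 1.37-fold), TUBG1 (0.35, 1.27-fold) and TUBB6 (0.35, 1.27-fold). After quantile normalization the differences were 0.56, 0.51, 0.34 and 0.22, and all 4 genes were still higher in culture 1. TUBB2A followed with 0.23, while the unmarked TUBB probe set 212320_at was lower in culture 1 by -0.28. The median difference was 0.14 over the 17, beside -0.0062 over all probe sets above background, of which the 5th and 95th percentiles were -0.56 and 0.45. After quantile normalization these medians were -0.0231 and 0.0212, and culture 1 exceeded the mean of cultures 2 and 3 at 8 of the 17 probe sets in place of 15. Each culture is 1 array, so these differences between cultures have no replicate and no p was computed.

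**Figure D2:**
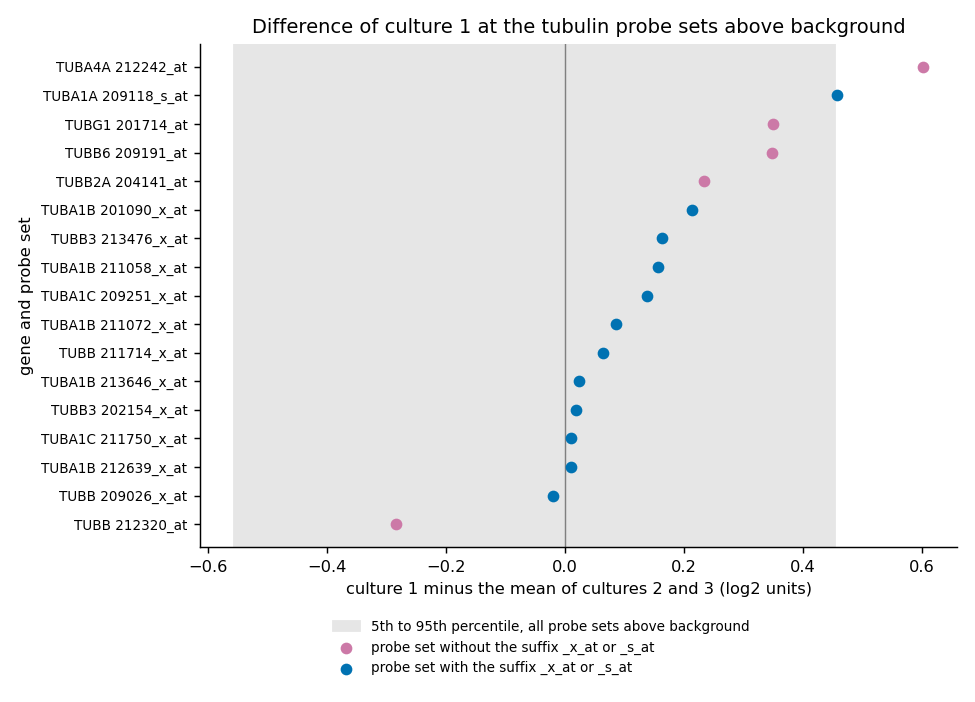
Culture 1 minus the mean of cultures 2 and 3 (horizontal axis, log2 units) at the 17 tubulin probe sets above background (vertical axis), coloured by whether the name ends in _x_at or _s_at, with the 5th to 95th percentile of all probe sets above background in grey. TUBA4A at 0.60 and TUBA1A at 0.46 lie right of the grey area, 15 points lie right of 0, and the 2 points left of it both belong to TUBB.

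The range over the cultures was at least 0.5 log2 units at 2 of the 17 probe sets, TUBA1A and TUBA4A, against 17.5% of all probe sets above background. None of the 17 had a range of 1 log2 unit or more, against 1.43% of all. The SD between cultures had a median of 0.119 over the 19 member probe sets, from 0.0059 (TUBA1B, 212639_x_at) to 0.353 (TUBA4A), beside 0.141 over all probe sets. The 12 marked probe sets above background had a median SD of 0.0812, beside 0.150 for all marked probe sets above background, and the 5 unmarked ones 0.207, beside 0.147 for all unmarked ones. Cultures 2 and 3 were close to each other, with an absolute difference of at most 0.185 at the 17 member probe sets and a median of 0.0940, beside 0.123 over all.

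Culture 1 also stood apart from the others on some measures of the arrays. Over all probe sets Pearson's r was 0.988 between cultures 1 and 2, 0.987 between 1 and 3, and 0.994 between 2 and 3. The median log2 value of the 27 poly-A control probe sets was 5.34 in culture 1, 6.59 in culture 2 and 6.63 in culture 3, and that of the 18 hybridization controls was 8.55, 8.83 and 8.78. The 3′ minus 5′ difference of the control probe sets was 1.64, 1.34 and 1.28 for GAPDH in cultures 1, 2 and 3. For ACTB it was 2.99, 3.25 and 3.003, where culture 2 and not culture 1 was the one apart. The summed linear level of 4 simple epithelial markers was 12266, 8874 and 10307, with KRT7 at 11.08, 9.90 and 10.27. The part of any of these in the higher tubulin values of culture 1 was not tested. In whole cultures more tubulin RNA per cell and a larger share of cells that make it cannot be told apart.

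The 4 genes above background that were higher in culture 1 by at least 0.3 log2 units are shown with the sequence before their start sites. They are the members that this comparison singled out. The windows are the 120 bases upstream of a RefSeq start in GRCh38.p14, 5′ to 3′ on the gene's strand, and TUBB6 has 2 such starts. Capitals mark the CCAAT box (CCAAT, or ATTGG on the opposite strand) and the GC box (GGGCGG, or CCGCCC on the opposite strand).
TUBA4A, chr2:219253919-219254038, minus strand: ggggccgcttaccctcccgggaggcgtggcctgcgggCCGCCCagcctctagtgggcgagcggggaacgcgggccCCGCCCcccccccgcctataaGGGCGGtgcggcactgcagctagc
TUBA1A, chr12:49189081-49189200, minus strand: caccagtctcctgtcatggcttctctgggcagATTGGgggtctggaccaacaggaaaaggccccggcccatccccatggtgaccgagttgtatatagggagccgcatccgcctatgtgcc
TUBG1, chr17:42609563-42609682, plus strand: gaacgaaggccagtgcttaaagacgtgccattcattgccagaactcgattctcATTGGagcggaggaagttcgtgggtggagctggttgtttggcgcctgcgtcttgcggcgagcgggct
TUBB6, chr18:12307549-12307668, plus strand: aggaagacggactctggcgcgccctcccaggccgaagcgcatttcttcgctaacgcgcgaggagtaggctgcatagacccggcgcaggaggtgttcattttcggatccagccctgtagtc
TUBB6, chr18:12308121-12308240, plus strand: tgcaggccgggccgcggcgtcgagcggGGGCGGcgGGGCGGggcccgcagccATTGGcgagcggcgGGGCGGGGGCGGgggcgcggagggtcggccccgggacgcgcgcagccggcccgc
A CCAAT box, on the opposite strand in each case, began at position -88 from the start in TUBA1A, -67 in TUBG1 and -68 in 1 of the 2 windows of TUBB6. The window of TUBA4A held 3 GC boxes and no CCAAT box. Over the 15 windows of the 10 members CCAAT was found in 5, against 20.4% of 35116 windows of all genes, and the GC box in 8, against 34.0%. The CCAAT boxes not shown were in TUBA1C (position -104) and TUBB3 (-79), whose differences of culture 1 were under 0.3 log2 units. The TATA box (TATAAA on either strand) was found in 1, that of TUBB2A, against 5.63% of all. A match of letters is a description of the sequence and does not show that a factor binds there.

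Of 13 further tubulin genes 8 were measured and 2 of these were above background (25.0%), beside 44.9% of all genes. TUBB4B, a beta-tubulin of many tissues and of cilia, had values of 12.82, 12.71 and 12.77 in cultures 1, 2 and 3 (limma, adjusted p = 5.6e-09). It was read by marked probe sets alone, so how much of these values belongs to TUBB4B cannot be told. TUBA4B had 7.42, 7.28 and 7.29 and lay 0.24 log2 units over the threshold (limma, adjusted p = 0.028). It was on no array over the highest value of the panel of other tissues, which was 7.58, 7.46 and 7.41. The platelet beta-tubulin TUBB1, the brain isotypes TUBB2B and TUBB4A, the gamma-tubulin TUBG2, TUBA8 and TUBAL3 were above background on no array, with means of 4.62 to 6.13.

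Of the measured genes of the gamma-tubulin complex and its anchors 7 of 8 were above background, beside 44.9% of all genes. This count depends on the threshold and on the probe sets used. With the highest panel value on each array, or with the panel median plus 3 scaled MADs, it was 3 of 8. The shares of all genes were then 38.1% and 34.5%, and TUBGCP3, TUBGCP4, CDK5RAP2 and AKAP9 no longer passed on every array. With the mean over a gene's probe sets the count was 5 of 8, beside 42.0% of all genes. Without marked probe sets 1 of the 2 genes still measured passed, beside 39.0% of all genes. TUBGCP2 passed at 1 of its 3 probe sets. PCNT, the centrosomal scaffold pericentrin, had a mean of 9.76 ± 0.15, the ring complex subunit TUBGCP2 9.17 ± 0.13 and MZT2B, a small protein of the complex, 8.75 ± 0.13 (SD, n = 3). The exception was TUBGCP5, with a mean of 5.19. The widest ranges were those of TUBGCP4, with 7.63, 7.39 and 8.08, and CDK5RAP2, a centrosomal activator of the complex, with 7.28, 7.75 and 7.41 in cultures 1, 2 and 3. Culture 1 was the highest for 2 of these 7 genes, beside 40.1% of all genes above background.

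Genes of tubulin folding were above background in 18 of 20 cases, beside 44.9% of all genes. Without marked probe sets 10 of the 16 still measured were, beside 39.0% of all genes. CCT8, TBCD, TBCE and PFDN4 then no longer passed, and CCT8 passed at 1 of its 2 probe sets in the main setting. New alpha- and beta-tubulin chains pass from prefoldin to the chaperonin CCT and then to cofactors that join them into the heterodimer. The 7 CCT subunits measured had means of 9.81 to 12.16, among them CCT8 (12.16 ± 0.11), CCT4 (11.87 ± 0.15) and CCT2 (11.21 ± 0.04). The 5 prefoldin subunits had means of 8.61 to 10.62 and the 5 cofactors TBCA to TBCE of 8.21 to 11.12. ARL2, a small GTPase of the cofactor step, and CCT3 had the widest ranges, with 8.49, 7.999 and 8.13 for ARL2 and 10.81, 10.41 and 10.63 for CCT3. The 2 not above background were the cofactor-like TBCEL (mean 5.31) and TBCCD1 (5.47). Culture 1 was the highest for 11 of the 18, beside 40.1% of all genes above background.

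**Figure D3:**
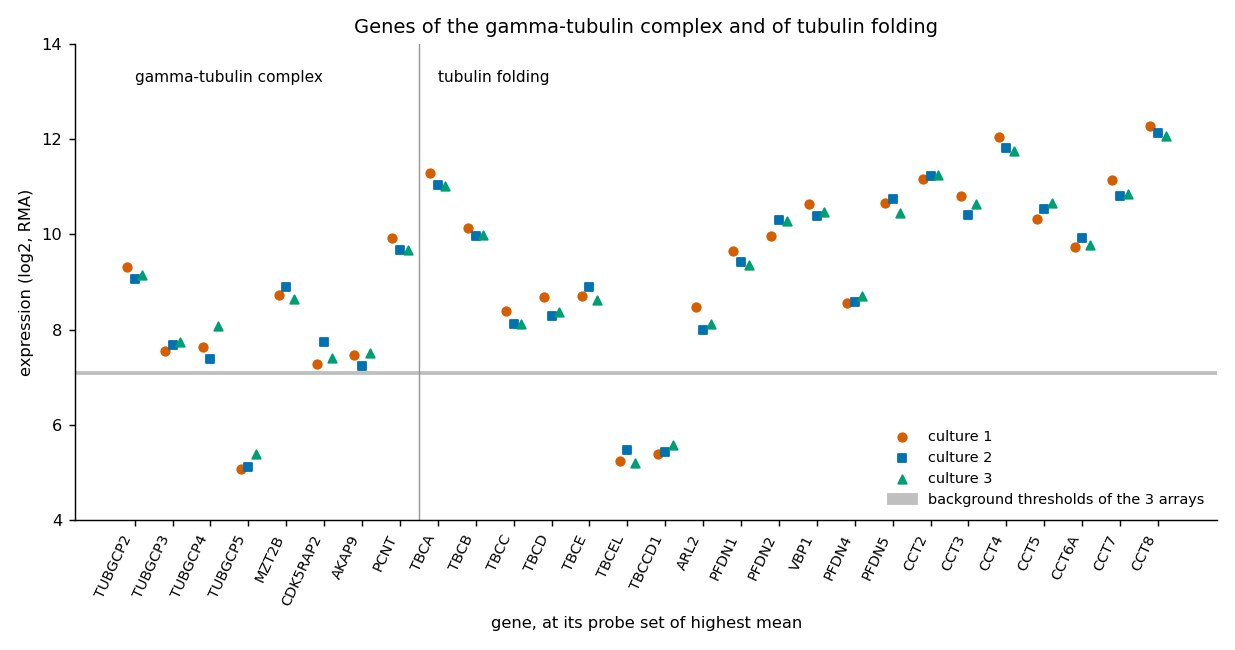
Log2 expression (vertical axis) of the measured genes of the gamma-tubulin complex and of tubulin folding (horizontal axis) in the 3 iHCE cultures, 1 point per culture, with the background thresholds as a grey band. TUBGCP5, TBCEL and TBCCD1 lie below the band in every culture and the other 25 genes above it.

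Of the enzymes that modify tubulin after it is made 5 of 14 were above background (35.7%), beside 44.9% of all genes. TTLL5, a polyglutamylase, had a mean of 8.94 ± 0.13, the deacetylase HDAC6 8.29 ± 0.08, TTLL12 8.28 ± 0.19, the deacetylase SIRT2 8.25 ± 0.13 and the deglutamylase AGBL5 8.23 ± 0.12 (SD, n = 3). TTLL5 passed at 1 of its 5 probe sets and HDAC6 at 1 of its 3. With the mean over a gene's probe sets neither passed, and 4 of the 14 genes did, beside 42.0% of all genes. VASH1, which removes the carboxyl-terminal tyrosine of alpha-tubulin, passed on 2 arrays with a mean of 7.11. The alpha-tubulin acetyltransferase ATAT1 had 6.24, 6.26 and 5.74 and the deglutamylase AGTPBP1 5.08, 5.41 and 5.75, the widest ranges of the list, and both were below background on every array.

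Of genes for microtubule ends, bundling and severing 14 of 22 were above background (63.6%), beside 44.9% of all genes. The limma test was passed by 13. The plus-end protein gene MAPRE1 had a mean of 11.92 ± 0.18, the polymerase gene CKAP5 10.75 ± 0.10 and PRC1, which bundles the microtubules of the central spindle, 10.71 ± 0.25 (SD, n = 3). MAPRE3 was above the threshold on each array and did not pass the test (mean 7.30, limma, adjusted p = 0.085). The widest ranges were those of MAP1B, a protein of neuronal microtubules, with 6.55, 6.92 and 7.31, above background in culture 3 alone, and of the severing enzyme subunit KATNA1, with 8.07, 8.75 and 8.70. Culture 1 was lowest for both. Over the 5 lists 46 of 72 measured genes were above background (63.9%), beside 44.9% of all genes. Culture 1 was the highest for 26 of the 46, beside 40.1% of all genes above background. The counts of culture 1 as the highest in these lists are for the deposited values alone.

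**Figure D4:**
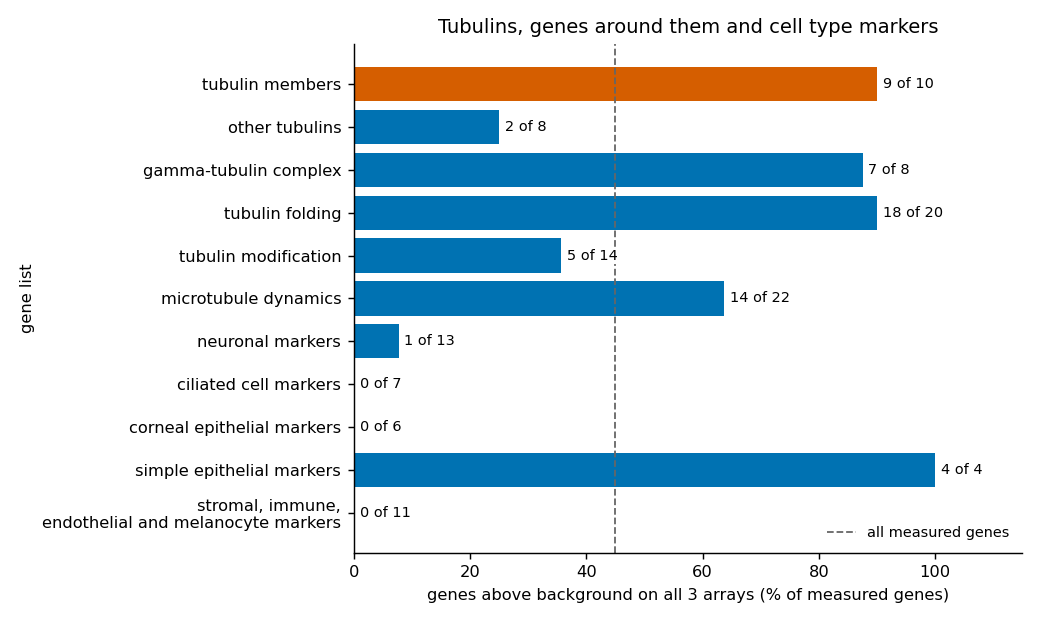
Share of measured genes above background on all 3 arrays (horizontal axis, percent) for the tubulin members, the lists of genes around them and the cell type marker lists (vertical axis), with counts at the bars and the share of all genes as a dashed line. The members (9 of 10), the gamma-tubulin complex (7 of 8) and tubulin folding (18 of 20) lie right of the line at 44.9%, and tubulin modification (5 of 14) and the other tubulins (2 of 8) left of it.

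The line's label was checked against marker genes, beside a share of 44.9% of all genes above background on all 3 arrays. All 4 simple epithelial markers were above background (KRT18 had a mean of 12.58, EPCAM 10.67, KRT7 10.42 and KRT8 10.24), and none of 6 corneal and stratified epithelial markers was on any array (KRT3 had a mean of 4.86, KRT12 5.26, PAX6 6.83, ALDH3A1 5.46, KRT5 6.16 and KRT14 4.94). PAX6 lay just under the threshold in culture 1, at 7.113 against 7.117. Of 11 markers of stroma, immune cells, endothelium and melanocytes none was above background on all arrays, and COL1A1 passed on the array of culture 1 alone (7.38, 6.79 and 6.97 in cultures 1, 2 and 3).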

How the data were processed

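Each of 3 independent replicate iHCE cultures gave RNA for a single Affymetrix HG-U133A array. The authors deposited log2 expression values for 22283 probe sets, made by RMA in R 2.8.0 per the submitters' processing notes. RMA corrects background, gives the arrays a common distribution and summarises probes, which compresses low values. The methods describe RMA over iHCE and corneal tissue arrays read in together, with probes re-annotated to genes. The deposited table is by the manufacturer's probe sets, and whether it comes from that joint run is not stated. Arrays have no counting depth, and precision is limited by their number, 3. The SD covers culture and technical variation together.

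Probe sets were named by the platform annotation, with symbols updated through RefSeq (GRCh38.p14). Of the probe sets 19071 named 1 gene, 1043 named several and 2169 were not listed, 68 of these being controls. A gene was taken at its probe set of highest mean. The background threshold was the 95th percentile, per array, of 62 measured genes of a panel of 70 from other tissues. Of these, 2 exceeded it on every array. Values minus the threshold were tested with limma 3.58.1 in R 4.3.3 (intercept only, one-sided, Benjamini-Hochberg over 22215 probe sets), with the threshold taken as fixed. The test was tried on simulated data first. Summed linear levels add 2 to the power of each log2 value. Promoter windows came from RefSeq.

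The members and gene lists were chosen with earlier results of these data known. The text names all members and measured tubulins, and from each further list the 3 highest means above background, the 2 widest ranges and exceptions to a count where there were 5 or fewer. Other genes named, such as single cell type markers, AGBL5, SIRT2, TBCA and TBCE, were picked with their values known. Alternatives tried were 3 other thresholds, quantile normalization, dropping each culture, dropping the _x_at and _s_at probe sets, and the mean over a gene's probe sets. For the differences between cultures, quantile normalization, centring on probe sets above background and leaving out marked probe sets were added after the data were seen.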

Additional observations from a re-analysis of the deposited data

Results flagged for a closer look

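Tubulin probe sets that the annotation gives to more than 1 gene entered no count above, and 3 of them read above background on all 3 arrays. Probe set 209372_x_at, annotated to TUBB2B and TUBB2A, had log2 values of 8.03, 7.93 and 8.09 in cultures 1, 2 and 3 (mean 8.016). Probe sets 210527_x_at and 216323_x_at, both annotated to TUBA3D and TUBA3C, had 7.84, 7.61 and 7.77 (mean 7.742) and 7.57, 7.51 and 7.65 (mean 7.576). All 3 are marked _x_at, and which gene gave the signal was not tested.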

How the results depend on the processing

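The counts of member probe sets above background (17), of member genes above it (9) and of probe sets passing the limma test (17) were the same with other thresholds (percentile 90, the highest panel value, and 3 scaled MADs over the panel median), quantile normalization, the mean over a gene's probe sets, and without each culture in turn (17 to 17, 9 to 9 and 17 to 17). Without probe sets marked _x_at or _s_at 5 member probe sets of 5 genes were left, and all 5 passed each rule (5, 5 and 5). Without the marked probe sets the median SD was 0.207 in place of 0.119. Of the related genes 20 of 41 measured were then above background, beside 39.0% of all genes, in place of 46 of 72, beside 44.9%. Leaving out each culture moved the median SD between 0.0798 (without culture 1) and 0.131, and the related genes above background between 45 and 48. With the other thresholds the latter count was 40 to 48 (gamma-tubulin complex 3 to 7 of 8), and 42 with the mean over probe sets. Culture 1 was the highest at 13 of 17 member probe sets, at 6 of 17 after quantile normalization, at 4 of 5 without marked probe sets, and at 15 of 17 after centring. The share of all probe sets above background (39.0%) is given for the 13 of 17 alone. The p-values leave out the error of the threshold, and saturation near the top of the scale was not tested. No paired analysis was possible because the 3 arrays form 1 group.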

Other observations

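Tubulin pseudogenes were read by 2 probe sets that name 1 gene each and were above background on no array. TUBB7P (211915_s_at) had values of 6.20, 5.87 and 5.83 in cultures 1, 2 and 3, and TUBBP5 (222361_at) had 6.79, 6.86 and 6.66. The probe set of TUBB2B (214023_x_at), which shares most of its coding sequence with TUBB2A, had 5.72, 5.82 and 5.51.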
